A study of Mus musculus with 5 samples.

Results

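The S250 library is mouse embryonic stem cells of the REX-1 RFP line kept for 72 h with leukaemia inhibitory factor (LIF) and 250 mM sorbitol, and it is set here against the NS library, the same line kept for 72 h with LIF and no sorbitol. Every barcode with at least 500 genes detected was taken, which was 10000 of 10000 in S250 and 10000 of 10000 in NS, out of 50000 barcodes in the series, of which 49074 passed that filter. The study grew 1 line under 5 conditions with 1 droplet single-cell RNA library each; besides S250 and NS these were 200 and 300 mM sorbitol with LIF (S200 and S300) and ND, without LIF. All 5 use the same line, in which a red fluorescent protein reports on the Rex1 (Zfp42) gene; the reporter's own transcript was not analysed here. The labels do not spell out NS and ND, and give neither clone nor passage number.

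Sorbitol crosses the plasma membrane slowly and draws water out of cells, so it serves as a laboratory model of hyperosmotic stress. Mammalian cells answer first by taking up sodium, potassium and chloride and later by gathering small organic osmolytes such as myo-inositol, betaine, taurine and sorbitol itself, through transporters and an aldose reductase whose genes the transcription factor Nfat5 turns on. Mouse embryonic stem cells depend on LIF, whose receptor activates the transcription factor Stat3 and other branches that sustain naive-state factors such as Klf4 and Tbx3. How far such stress shifts these cells away from the naive state is the question that the reporter line and the condition without LIF put to these libraries.

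S250 held 9766705 UMIs (unique molecular identifiers, 1 per captured transcript) and NS 22158653. The median barcode held 939 UMIs and 625 genes in S250, against 2135 UMIs and 1102 genes in NS. Mitochondrially encoded transcripts took 5.78% of the UMIs in S250 and 3.98% in NS, cytosolic ribosomal protein genes 22.5% and 28.4%, and the nuclear RNA Malat1 2.22% and 1.41%. The libraries shared 34 barcode sequences. The 11 markers of embryonic stem cells fixed for the check of the label were all measured in both libraries, at a summed 9120 CPM in S250 and 6988 CPM in NS. Most of the sum was Dppa5a, with 6237 CPM in S250 and 4855 CPM in NS. Pou5f1, Utf1 and Lin28a had lower levels in S250 than in NS, and the other markers higher ones. The fibroblast markers Col3a1, Postn and Dcn and the blood markers Ptprc and Hbb-bs had 0 UMIs in both. A count of 0 does not show absence. The floor of 3 UMIs used for ratios is 0.307 CPM in S250 and 0.135 CPM in NS. Other members of these marker lists were detected at low levels. Thy1 had 39 UMIs in S250 and 70 in NS, Col1a1 12 and 9, Col1a2 3 and 3, and the blood marker Cd79a 42 and 156.

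Levels are counts scaled to the same total in each library (CPM, counts per 1000000): UMIs summed over a library's barcodes and divided by their total. A ratio is the log2 of the S250 level over the NS level, and ranges in brackets are exact 95% intervals. With 1 library a side these intervals cover counting error only, no p-value can be given, and a batch cannot be told apart from the treatment. Nor can a summed level tell more cells with a transcript from more of it per cell. A gene counts as measured with at least 5 CPM in either library, and as higher or lower at 1.5-fold or more, a threshold that stands in for a test. Where a gene passes the 5 CPM filter through 1 library alone, the filter fixes the direction of its ratio. Of 10624 measured genes, 2817 were higher in S250 (26.5%) and 923 were lower (8.69%), and the median log2 ratio over all of them was 0.23. At 2-fold the counts were 1052 (9.9%) and 323 (3.04%). Median-of-ratios scaling, which sets the median gene to 0, lowers each ratio by 0.23, and TMM scaling by 0.26. Of the genes past 1.5-fold, 75.3% were higher with CPM, 50.5% with median-of-ratios scaling and 46.2% with TMM, so the balance of higher and lower genes follows the scaling. Counts with median-of-ratios scaling are given in brackets beside those of most lists, higher before lower.

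**Figure D1:**
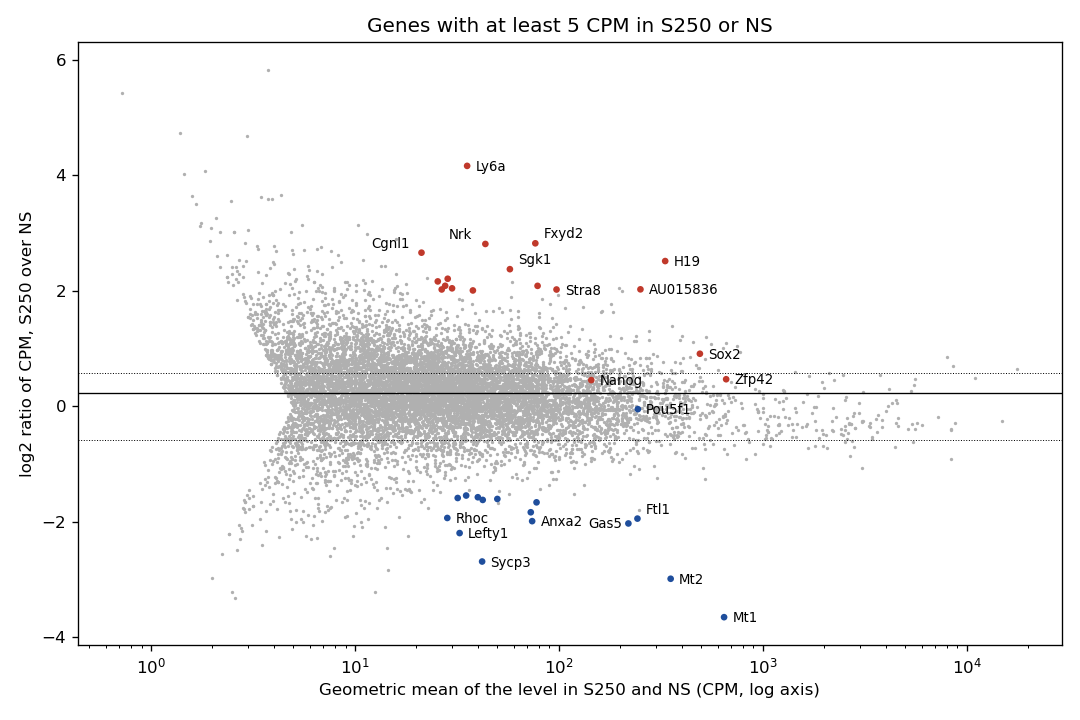
Each point is 1 of 10624 measured genes; the horizontal axis is the geometric mean of its level in S250 and NS (CPM, log axis) and the vertical axis the log2 ratio of S250 over NS. The solid line is the median of all measured genes, 0.23, the dotted lines mark 1.5-fold, and red and blue points are the 15 highest and 15 lowest named genes with Zfp42, Nanog, Sox2 and Pou5f1; Ly6a stands at 4.16 and Mt1 at -3.65, farther from the line than the other labelled genes.

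The ratio was highest for Ly6a when genes below 50 CPM in both libraries were set aside. Ly6a (ENSMUSG00000075602; chromosome 15, 74994877 to 74998031 in mm10), which encodes the surface antigen Sca-1, stood at 150.3 CPM in S250 and 8.39 CPM in NS, a log2 ratio of 4.16 (3.94 to 4.39) or 17.9-fold. Fxyd2 (ENSMUSG00000059412; chromosome 9, 45399669 to 45410278), the gamma subunit that tunes the sodium pump, stood at 204 CPM in S250 and 28.8 CPM in NS (2.82, 2.69 to 2.95). Nrk (ENSMUSG00000052854; chromosome X, 138914430 to 139010532), a protein kinase gene, had 116 CPM in S250 and 16.5 CPM in NS, and Cgnl1, which encodes the junction protein paracingulin, 53.3 and 8.44 CPM. Both were more than 6-fold higher. The noncoding RNA H19 and the kinase gene Sgk1 followed and are described with their groups. The other 9 of the 15 highest genes, Nfib, Parm1, Man2a1, Ap1s2, Hist1h2bc, AU015836, Tcf7l2, Stra8 and Hist1h1c, lay between 2.01 and 2.21, and Klf4, at 1.99, was the first gene outside the 15.

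With the same limit of 50 CPM, the lowest ratios belonged to the metallothionein genes Mt1 and Mt2, at -3.65 and -2.98. Sycp3, an axial element gene of meiotic chromosomes, followed with 16.6 CPM in S250 and 107 CPM in NS (-2.69, -2.92 to -2.46), and Lefty1, a secreted inhibitor of Nodal, with 15.3 CPM and 69.8 CPM (-2.19, -2.45 to -1.95). Gas5, Anxa2, Ftl1 and Rhoc lay between -2.03 and -1.93. The remaining genes of the 15 lowest were Blvrb (a biliverdin reductase), Ndufa4l2, Zfp593, Hist1h2ae, Ptpmt1 (a mitochondrial phosphatase), Dhrs7 and Card19, from -1.83 to -1.54, with Ubl4a just outside at -1.52. All 15 highest and all 15 lowest genes lay on the same side of NS, by at least 1.5-fold, at both 200 and 300 mM sorbitol, libraries that share the NS library as their denominator. In ND, without sorbitol and without LIF, each of the 15 lowest except Lefty1 also stood below NS. Examples are Anxa2 (41.5 CPM in ND, 147 CPM in NS), Ndufa4l2 (43.0 and 138 CPM) and Dhrs7 (21.6 and 69.1 CPM). Lefty1 was higher in ND, at 152 CPM. Of the highest genes, Nrk stood above NS in ND (43.1 CPM) and Ly6a below it (5.19 CPM).

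The reporter gene Zfp42 (ENSMUSG00000051176; chromosome 8, 43295063 to 43306980) stood at 778 CPM (761 to 796) in S250 and 562 CPM (552 to 572) in NS. Its log2 ratio, 0.47 (0.43 to 0.51), is short of 1.5-fold and became 0.24 with median-of-ratios scaling. Sox2, a core pluripotency factor, was higher, at 674 CPM in S250 and 358 CPM in NS (0.91, 0.86 to 0.96). Nanog stood at 169 CPM in S250 and 123 CPM in NS (0.45), and Pou5f1, which encodes Oct4, at 240.0 and 248 CPM (-0.05, -0.12 to 0.02). None of these 4 factors was lower by 1.5-fold. Over all 21 core pluripotency genes, 5 were higher and 2 lower, beside 26.5% and 8.69% of all measured genes. The median of the list was 0.29 against 0.23 for all measured genes. With median-of-ratios scaling 4 were higher and 2 lower. Sall4, a zinc finger factor of the Oct4 network, had 208 CPM in S250 and 81.8 CPM in NS (1.34), and Trim28, a corepressor, 1072 and 522 CPM (1.04). Lin28a, an RNA-binding protein gene that blocks let-7 maturation, had the lowest ratio of the list, at 21.8 CPM in S250 and 38.7 CPM in NS (-0.83).

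The naive pluripotency genes past 1.5-fold were all higher with CPM. Of 19 measured of 21 listed, 10 were higher and 0 lower, with a median of 0.74; with median-of-ratios scaling 8 were higher and 2 lower, with a median of 0.51. Klf4 (ENSMUSG00000003032; chromosome 4, 55527143 to 55532466) stood at 407 CPM in S250 and 102 CPM in NS (1.99, 1.92 to 2.07), and Tbx3, another naive-state factor, at 326 and 105 CPM (1.63). Calcoco2, Mreg and Zfp57, a zinc finger protein that guards imprints, ranged from 1.07 to 1.12. The list of the LIF receptor, Stat3 and its targets had 4 of 18 measured genes higher and 0 lower (median 0.27). The shares over all measured genes were 26.5% and 8.69%. With median-of-ratios scaling the list had 2 higher and 2 lower. Its highest members were Ifitm3 (90.6 CPM in S250, 36.5 CPM in NS; 1.31) and Ier3 (86.2 and 35.8 CPM; 1.27), with the coactivator gene Bcl3 at 0.79 and the adhesion gene Icam1 at 0.72. Socs2, a feedback inhibitor of cytokine receptors, stood at 26.1 CPM in S250 and 38.7 CPM in NS (-0.57). Klf4 and Tbx3 had higher ratios than any member of the receptor list.

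Genes of the formative and primed epiblast, which cells express as they leave the naive state, split. Of 15 measured of 22 listed, 6 were higher and 5 lower (median -0.11; 5 and 7 with median-of-ratios scaling). Foxd3 had 7.47 CPM in S250 and 1.49 CPM in NS (2.33), Otx2, a transcription factor of the formative state, 49.9 and 21.5 CPM (1.21), and Sox4 15.3 and 6.81 CPM (1.16). Nkx2-9, at 1.33 CPM in S250 and 5.91 CPM in NS (-2.15), and the Wnt antagonist gene Sfrp2, at 3.79 and 10.2 CPM (-1.44), were the lowest. Of the 15, 1 passed the 5 CPM filter through S250 alone, Foxd3, and 3 through NS alone, Nkx2-9 and Sfrp2 among them. The 6 higher members included Dnmt3b, a de novo methyltransferase, with 91.0 CPM in S250 and 41.3 CPM in NS.

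The osmoprotective genes had the highest median of the lists with at least 9 measured members. Of 15 listed, 11 were measured, 10 were higher and 0 lower, with a median of 1.31; with median-of-ratios scaling 7 were higher and the median was 1.08. Slc6a12, the betaine transporter gene, had 7.17 CPM in S250 and 0.271 CPM in NS (4.73, 3.53 to 6.22). It counts as measured through S250 alone, so the direction of its ratio, though not the size, was fixed by the filter. Slc5a3 (ENSMUSG00000089774; chromosome 16, 92058322 to 92087473), the myo-inositol transporter gene, stood at 31.2 CPM in S250 and 5.78 CPM in NS (2.43, 2.13 to 2.74). Sgk1 (ENSMUSG00000019970; chromosome 10, 21882184 to 21999903), a kinase that raises ion and amino acid transport, stood at 131 and 25.3 CPM (2.37, 2.23 to 2.52). The aldose reductase gene Akr1b3, whose enzyme turns glucose into sorbitol, had 289 CPM in S250 and 92.1 CPM in NS (1.65). Nfat5, which encodes the regulator of these genes, had 74.4 CPM in S250 and 29.9 CPM in NS (1.31). The taurine transporter gene Slc6a6 was also among the 10.

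Genes of the sodium pump and of potassium and chloride transport had 8 of 18 measured members higher and 4 lower (median 0.50; 7 and 5 with median-of-ratios scaling). Beside Fxyd2, the pump's beta subunit gene Atp1b1 (ENSMUSG00000026576) stood at 240.2 CPM in S250 and 72.6 CPM in NS (1.73, 1.63 to 1.82), and Atp1b3, another beta subunit gene, at 159 and 83.4 CPM (0.93). Slc12a2, the sodium, potassium and chloride cotransporter NKCC1, had 50.7 CPM in S250 and 21.0 CPM in NS (1.27). Stk39, a kinase that activates that cotransporter, was lower, at 4.71 CPM in S250 and 11.5 CPM in NS (-1.29), and passed the 5 CPM filter through NS alone.

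Surface antigens of the Ly6 and GPI-anchored group had 5 of 9 measured genes higher and 1 lower (median 0.69; 4 and 1 with median-of-ratios scaling). After Ly6a came Alpl, the tissue-nonspecific alkaline phosphatase used as a stem cell stain, at 195 CPM in S250 and 50.9 CPM in NS (1.94), then Ly6g6e (1.28) and the ephrin gene Efna4 (24.3 and 12.4 CPM; 0.97). The complement inhibitor gene Cd59a was lower, with 17.1 CPM in S250 and 30.1 CPM in NS (-0.82).

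Imprinted genes, read from 1 parental allele, had 10 of 25 measured members higher and 1 lower (median 0.38; 9 and 3 with median-of-ratios scaling), and 4 of the 25 passed the 5 CPM filter through S250 alone. H19 (ENSMUSG00000000031; chromosome 7, 142575529 to 142578143), a noncoding RNA, stood at 794 CPM in S250 and 139 CPM in NS (2.51, 2.45 to 2.58). Igf2 (ENSMUSG00000048583; chromosome 7, 142650766 to 142666816), the insulin-like growth factor gene next to it, had 15.4 CPM in S250 and 1.22 CPM in NS (3.66, 3.06 to 4.30), from 150 and 27 UMIs. Igf2 is 1 of the 4 genes measured through S250 alone. H19 is read from the maternal and Igf2 from the paternal copy, and both were higher. Peg3, a zinc finger gene, had 166 CPM in S250 and 48.9 CPM in NS (1.77), and Peg10, a gene of retrotransposon origin needed in the placenta, 194 and 59.5 CPM (1.71).

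Metallothioneins are small cysteine-rich proteins that bind zinc and copper, and the zinc-sensing factor Mtf1 drives their genes through metal response elements. Mt1 (ENSMUSG00000031765; chromosome 8, 94179082 to 94180327) stood at 182 CPM (174 to 191) in S250 and 2287 CPM (2267 to 2307) in NS, a log2 ratio of -3.65 (-3.72 to -3.58) or 12.5-fold lower. Mt2 (ENSMUSG00000031762; chromosome 8, 94172664 to 94173568) stood at 126 CPM in S250 and 994 CPM in NS (-2.98, -3.07 to -2.90). Mt3 stood at 4.71 CPM in S250 and 17.6 CPM in NS (-1.90), and passed the 5 CPM filter through NS alone. The other 15 of the 18 measured genes of the metallothionein and zinc list, mostly transporters, had 5 higher members, among them the zinc exporter genes Slc30a4 (1.05) and Slc30a1 (0.96) and the metallothionein gene Mt4 (8.29 CPM in S250, 4.69 CPM in NS), and 3 lower ones. Over the 18 the median was 0.19, and -0.03 with median-of-ratios scaling (4 higher, 6 lower). Of the 18, 2 passed the 5 CPM filter through S250 alone, Mt4 among them, and 2 through NS alone, Mt3 among them. Mtf1 itself stood at 23.2 CPM in S250 and 24.3 CPM in NS (-0.07). The promoters of Mt1 and Mt2, neighbours on 1 strand that fell together, are shown from 250 bases before to 50 bases from the start (RefSeq, GRCm38.p6), chr8:94178839-94179138 and chr8:94172368-94172667, both on the plus strand, 5′ to 3′, with capitals for each match to the core of the metal response element, TGCACNC or TGCGCNC, on either strand.
Mt1 promoter: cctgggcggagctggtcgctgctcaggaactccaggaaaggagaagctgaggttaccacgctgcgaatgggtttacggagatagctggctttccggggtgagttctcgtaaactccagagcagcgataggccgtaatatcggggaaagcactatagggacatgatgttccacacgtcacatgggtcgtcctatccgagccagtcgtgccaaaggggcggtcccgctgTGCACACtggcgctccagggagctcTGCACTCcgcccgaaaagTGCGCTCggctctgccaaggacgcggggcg
Mt2 promoter: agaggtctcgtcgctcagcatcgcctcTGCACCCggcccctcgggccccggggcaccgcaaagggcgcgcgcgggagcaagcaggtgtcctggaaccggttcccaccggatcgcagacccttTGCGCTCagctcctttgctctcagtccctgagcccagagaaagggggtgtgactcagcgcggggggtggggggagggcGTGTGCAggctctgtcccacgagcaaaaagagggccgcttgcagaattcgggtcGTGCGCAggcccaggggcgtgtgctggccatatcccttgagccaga
The script-counted matches were 3 for Mt1 and 4 for Mt2, and 1 each for Mt3 and Mt4. Of 8469 measured genes with such a window, 4.09% held at least 3 matches, and 2.27% of all 27025 genes with a window. A match is a run of letters and not a measured binding site.

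The list of iron, ferritin and Nrf2 target genes had 2 of 26 measured members higher and 7 lower (median -0.28; 2 and 12 with median-of-ratios scaling). Ftl1, the ferritin light chain, stood at 124 CPM in S250 and 476 CPM in NS (-1.94, -2.03 to -1.86), though near-identical copies make its counts uncertain. Gclm, a subunit of the enzyme that makes glutathione, had 45.6 CPM in S250 and 107 CPM in NS (-1.24). The cystine transporter gene Slc7a11 had a ratio of -1.32 and passed the 5 CPM filter through NS alone. The higher members were Ireb2, an iron sensor that holds back ferritin translation (86.4 CPM in S250, 44.9 CPM in NS), and the iron importer gene Slc11a2 (40.3 and 22.1 CPM). Ferritin light chain RNA was lower while both of these were higher.

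Signalling lists were mixed. In the Nodal pathway 4 of 17 measured genes were higher and 2 lower (median 0.29), beside 26.5% and 8.69% of all measured genes. With median-of-ratios scaling 1 was higher and 4 lower. Lefty1, itself a target of the pathway, had the lowest ratio. Receptor genes Acvr1b (0.92) and Acvr2b (0.65) and the convertase gene Pcsk6 (0.64) were higher. Among BMP genes, with 2 of 13 higher and 3 lower (median -0.00; 1 and 4 with median-of-ratios scaling), the direct targets Id1 (6.14 CPM in S250, 33.8 CPM in NS; -2.46, -2.86 to -2.08) and Id2 (11.4 and 31.6 CPM; -1.47) and the ligand gene Bmp7 (1.95 and 6.14 CPM; -1.66) were lower. The ligand gene Bmp4 was higher, at 44.8 CPM in S250 and 28.7 CPM in NS (0.65), as was the inhibitor gene Smad6 (1.33). Of the 13 BMP genes, 3 passed the 5 CPM filter through S250 alone and 1, Bmp7, through NS alone. With a filter of 1 CPM the BMP list had 5 higher and 4 lower members (median 0.33).

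Wnt pathway genes had 7 of 19 measured members higher and 1 lower (median 0.55; 5 and 2 with median-of-ratios scaling). The receptor genes Fzd5 (27.5 CPM in S250, 6.77 CPM in NS; 2.02), Fzd7 (1.56) and Fzd10, and the DNA-binding partners of beta-catenin Tcf7l2 (53.8 and 13.2 CPM; 2.02) and Tcf7l1 (152 and 58.4 CPM; 1.38), were higher. Sfrp2, a secreted inhibitor, was the lower one. It passed the 5 CPM filter through NS alone, and 2 of the 19 passed through S250 alone. In the list of FGF and ERK feedback genes 6 of 22 were higher and 2 lower, beside 26.5% and 8.69% of all measured genes. Its median was 0.08, and -0.15 with median-of-ratios scaling. The feedback inhibitor gene Spry2 had 32.3 CPM in S250 and 12.3 CPM in NS (1.39), and the receptor genes Fgfr1 58.9 and 27.8 CPM (1.08) and Fgfr2 7.58 and 3.34 CPM (1.18). Of the 22, 3 passed the 5 CPM filter through S250 alone, Fgfr2 among them, and 1 through NS alone.

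Lists of the first lineages held genes at a wide range of levels. Of 24 listed genes of primitive and extraembryonic endoderm 13 were measured, 9 higher and 4 lower (median 0.81; 7 and 4 with median-of-ratios scaling). The endocytic receptor gene Lrp2 had 23.4 CPM in S250 and 5.14 CPM in NS (2.19), the laminin genes Lamc1 68.3 and 27.5 CPM (1.31) and Lama1 43.0 and 19.3 CPM (1.15). The defining factors were near the bottom of the scale in both libraries: Gata6 had 8.29 CPM in S250 and 5.01 CPM in NS, and Sox17 0.512 and 0.812 CPM. Cited1, a coactivator gene on that list, was lower, at 9.83 CPM in S250 and 26.5 CPM in NS (-1.43). Of the 13 measured endoderm genes, 2 passed the 5 CPM filter through S250 alone. Of 24 trophoblast and keratin genes 17 were measured, 6 higher and 4 lower (median 0.08; -0.14 with median-of-ratios scaling), led upward by Peg10, the cadherin gene Cdh3 (1.38) and Eomes (28.2 CPM in S250, 11.3 CPM in NS; 1.32). Only 2 of 18 listed primitive streak and mesoderm genes were measured, Eomes and Hand1, and both were higher. Of 19 neuroectoderm genes 5 were measured, with Sox21 at 30.6 CPM in S250 and 3.47 CPM in NS (3.14, 2.77 to 3.52) and Pax6 at 0.819 and 7.63 CPM (-3.22, -4.45 to -2.21). Of these 5, 2 passed the filter through S250 alone, Sox21 among them, and Pax6 through NS alone; Sox1 had 2 UMIs in S250 and 6 in NS. In the cleavage-stage-like list Gm20767 was the 1 higher member of 3 measured, and near-identical copies make this family uncertain. Of 3 measured fibroblast genes, Col5a1 was higher and Twist1 lower. Cd79a was the 1 measured gene of the blood and liver list, at 4.30 CPM in S250 and 7.04 CPM in NS. Twist1 and Cd79a passed the 5 CPM filter through NS alone.

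Meiotic and germline genes moved in both directions. Of 21 measured, 8 were higher and 6 lower (median 0.09; 7 and 7, median -0.14, with median-of-ratios scaling). Stra8 (ENSMUSG00000029848; chromosome 6, 34920163 to 34939344), the retinoic acid induced switch into meiosis, stood at 196 CPM in S250 and 48.3 CPM in NS (2.02, 1.91 to 2.13). Meioc, whose protein stabilises the meiotic programme, had 61.8 CPM in S250 and 17.1 CPM in NS (1.85), and the germ cell RNA-binding gene Dazl 24.4 and 8.03 CPM (1.60). The lowest were Sycp3 and Tdrd12, a piRNA pathway gene (4.51 CPM in S250 and 12.5 CPM in NS, a ratio of -1.47). Of the 21, 2 passed the 5 CPM filter through NS alone, Tdrd12 among them. Entry factors and the axial element gene Sycp3 lay at opposite ends of the list.

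Most cell cycle genes were within 1.5-fold. Among G1 cyclins and the Rb pathway 4 of 23 measured genes were higher and 7 lower (median 0.03; 4 and 8, median -0.19, with median-of-ratios scaling). Ccnd1, cyclin D1, stood at 6.86 CPM in S250 and 29.1 CPM in NS (-2.08, -2.47 to -1.72), Ccnd2 at 16.2 and 30.2 CPM (-0.90), and their kinase partner gene Cdk6 at 5.32 and 11.6 CPM (-1.12). Of 31 S phase genes, with a median of 0.10, 3 were higher (beside 26.5% of all measured genes), among them Ung, a DNA repair glycosylase gene (0.79), and Cdc45, a helicase subunit gene (0.76), and 1 was lower; median-of-ratios scaling gave 1 higher and 3 lower (median -0.12). Of 31 genes of G2 and M phase 1 was higher, Bub1b (0.68), and 2 lower, Aurka (-0.74) and Cenpa (-0.65), with a median of -0.21; median-of-ratios scaling gave 0 higher and 10 lower. Ccnd1 had the ratio farthest from 0 of these 3 lists. Of 23 measured histone genes 5 were higher and 9 lower (median -0.18; 3 and 9 with median-of-ratios scaling). Hist1h1c, a linker histone gene, had 76.0 CPM in S250 and 18.9 CPM in NS (2.01), and Hist1h1b, another, 70.1 and 200.1 CPM (-1.51). Replication-dependent histone messages mostly lack a poly(A) tail and have near-identical copies, so these levels are uncertain.

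Stress programmes other than the osmotic one were near the level of all genes. Targets of ATF4 in the integrated stress response had 6 of 39 measured members higher and 4 lower (median 0.15; 3 and 11, median -0.08, with median-of-ratios scaling). The cationic amino acid transporter gene Slc7a3 had 173 CPM in S250 and 70.4 CPM in NS (1.30), and Chac1, a glutathione-degrading enzyme, 35.5 and 69.9 CPM (-0.98). Heat shock genes had 7 of 24 higher and 0 lower (median 0.20), beside 26.5% and 8.69% of all measured genes. With median-of-ratios scaling 5 were higher and 3 lower (median -0.03). Of the 24, 3 were measured through S250 alone, Hspa1a and Hspa1b among them. Hsph1 had 121 CPM in S250 and 56.2 CPM in NS (1.11) and the small heat shock gene Hspb1 1074 and 556 CPM (0.95). The inducible Hspa1a stood at 5.63 and 1.22 CPM (2.21) and Hspa1b at 13.7 and 3.47 CPM (1.98), near-identical copies that reads may not tell apart. Endoplasmic reticulum chaperones had 1 of 19 higher, Pdia4 (0.66), and 1 lower, Herpud1 (-0.79), with a median of 0.17 (-0.05 with median-of-ratios scaling). Targets of p53 had 5 of 25 higher and 2 lower (median 0.02; 0 and 5, median -0.20, with median-of-ratios scaling); Phlda3, a p53-induced inhibitor of Akt, had 42.4 CPM in S250 and 103 CPM in NS (-1.28).

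Energy metabolism and protein synthesis genes mostly stood below the median of all genes. Glycolysis and hypoxia genes had 3 of 33 measured members higher and 9 lower (median -0.21; 2 and 12 with median-of-ratios scaling). Ndufa4l2, a hypoxia-induced mitochondrial gene, had 43.7 CPM in S250 and 138 CPM in NS (-1.66), and Ldhb, a lactate dehydrogenase gene, 284 and 493 CPM (-0.80), whereas Pfkp, a phosphofructokinase gene, was higher, at 352 and 161 CPM (1.13). Nuclear-encoded respiratory chain genes had 0 of 39 higher and 2 lower, Cox8a (-0.65) and Cox5b (-0.61), with a median of -0.09; median-of-ratios scaling gave 0 higher and 8 lower. The 13 mitochondrially encoded genes had 3 higher and 0 lower (median 0.48; 1 and 1, median 0.26, with median-of-ratios scaling), led by mt-Co3 with 10740 CPM in S250 and 5975 CPM in NS (0.85). Of these, 9 of 13 mitochondrially encoded and 5 of 39 nuclear-encoded genes lay above the median of all genes. Among barcodes with at most 5% mitochondrial UMIs the mitochondrially encoded median was 0.19, against 0.24 for all genes. That cut picks barcodes by the same UMIs that are compared (2591 kept in S250, 8505 in NS). It draws the mitochondrial shares of the libraries together by its rule, so no conclusion is drawn from the smaller median. Proteasome genes had 0 of 29 higher and 1 lower (median -0.21; 0 and 6 with median-of-ratios scaling), translation factors 1 of 32 higher and 2 lower (median -0.02; 0 and 6). Cytosolic ribosomal protein genes had 2 of 83 higher and 9 lower (median -0.31; 2 and 33 with median-of-ratios scaling). Their lowest members were Rpl38 (6090 CPM in S250, 11466 CPM in NS; -0.91) and Rpl28 (-0.85), and the 2 higher were the testis-linked retrocopies Rpl10l (124 and 27.8 CPM; 2.16) and Rpl39l (102 and 39.9 CPM; 1.36), whose close parent genes may exchange reads with them.

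Host genes of small nucleolar RNAs carry those guide RNAs in their introns, and their spliced transcripts are mostly noncoding and quickly degraded when translated. They had the lowest median of the lists with at least 9 measured members: of 19 measured, 0 were higher and 10 lower (median -0.74; 0 and 12, median -0.96, with median-of-ratios scaling). Gas5 (ENSMUSG00000053332, chromosome 1, 161034422 to 161038539) stood at 109 CPM in S250 and 443 CPM in NS (-2.03, -2.12 to -1.94). Snhg1 stood at 81.6 and 172 CPM (-1.07), Snhg12 at 41.0 and 92.4 CPM (-1.17) and Snhg18 at 2.56 and 8.98 CPM (-1.81). Snhg18 passed the 5 CPM filter through NS alone. Many such genes, like ribosomal protein genes, begin at a terminal oligopyrimidine motif, a C followed by a run of pyrimidines. The windows of 4 host genes are shown from 20 bases before to 25 bases from the annotated start (RefSeq, GRCm38.p6): Gas5 chr1:161035146-161035190, Snhg1 chr19:8723467-8723511 and Snhg12 chr4:132308658-132308702 on the plus strand, and Snhg8 chr3:123508312-123508356 on the minus strand, each 5′ to 3′ on its own strand, with capitals for the unbroken run of C or T that begins at the start base.
Gas5: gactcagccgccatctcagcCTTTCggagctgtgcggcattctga
Snhg1: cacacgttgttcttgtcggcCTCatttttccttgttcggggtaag
Snhg12: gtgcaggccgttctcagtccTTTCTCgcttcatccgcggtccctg
Snhg8: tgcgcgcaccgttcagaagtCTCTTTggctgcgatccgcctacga
The run was 5, 3, 6 and 6 bases long in these 4. A run of at least 5 stood at the start of 5 of 16 host genes with a window (31.3%) and of 16 of 63 ribosomal protein genes (25.4%), beside 5.10% of 8469 measured genes. The count took the longest run over a gene's windows and allowed T as its first base. Snhg12 is such a case, and C or T bases also precede its start. The 4 genes shown do not stand for the list. Most host genes with a window had a run of 0, namely Snhg3, Snhg5, Snhg9, Snhg11, Snhg14, Snhg15, Snhg16, Snhg20, Zfas1 and Taf1d. Annotated starts may be off by some bases, so a gene without such a run here may still have the motif.

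Polycomb, SWI/SNF and other chromatin regulators had 14 of 35 measured members higher and 1 lower (median 0.46; 5 and 1, median 0.24, with median-of-ratios scaling), in a comparison where 75.3% of all genes past 1.5-fold were higher. Kdm6b, a demethylase of the Polycomb mark, had 130 CPM in S250 and 57.2 CPM in NS (1.19), and Chd4, the remodeller of the NuRD complex, 671 and 309 CPM (1.12). Phf19, a Polycomb accessory gene, was lower, at 4.61 CPM in S250 and 11.1 CPM in NS (-1.27). Of the 35, 1 passed the 5 CPM filter through S250 alone, and 1, Phf19, through NS alone. Among 16 DNA methylation and Tet genes 6 were higher and 0 lower (median 0.39; 5 and 0 with median-of-ratios scaling): the methyltransferase genes Dnmt3b (1.14) and Dnmt3a (0.92) and the demethylase gene Tet2 (0.90) were among them. Splicing factors had 4 of 38 higher and 2 lower (median 0.01; 2 and 10, median -0.21, with median-of-ratios scaling), with the kinase gene Clk1 at 129 CPM in S250 and 50.6 CPM in NS (1.35) and Snrpd1, a core spliceosome protein gene, at 202 and 334 CPM (-0.72). Long noncoding RNAs split, 6 of 19 higher and 5 lower (median -0.04). Xist stood at 9.42 CPM in S250 and 1.67 CPM in NS (2.50) and the stem cell transcript Platr14 at 15.5 and 35.6 CPM (-1.20). Of the 19, 1 passed the 5 CPM filter through S250 alone, Xist, and 1 through NS alone.

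Matrix and junction genes moved in both directions. The mesenchymal state and matrix list had 9 of 23 measured members higher and 6 lower (median 0.47, the same counts with median-of-ratios scaling). The epithelial list had 5 of 20 higher and 4 lower (median -0.03), beside 26.5% and 8.69% of all measured genes. With median-of-ratios scaling the epithelial list had 2 higher and 8 lower. The difference between the lists was not tested. Fn1, fibronectin, had 284 CPM in S250 and 91.7 CPM in NS (1.63), and the protease inhibitor genes Timp1 6.35 and 19.7 CPM (-1.64) and Timp2 8.70 and 23.2 CPM (-1.41). Cdh1, E-cadherin, was higher, at 121 CPM in S250 and 67.7 CPM in NS (0.83), and the claudin gene Cldn7 lower, at 95.6 and 190.3 CPM (-0.99). S100, annexin and actin genes had 3 of 33 higher and 9 lower (median -0.13; 3 and 11): Anxa2, a membrane-binding annexin, had 37.2 CPM in S250 and 147 CPM in NS (-1.99), Rhoc, a small GTPase gene, 14.5 and 55.5 CPM (-1.93), and its list mate S100a6 586 and 265 CPM (1.15). Lysosome and autophagy genes had 7 of 32 higher and 4 lower (median 0.21), beside 26.5% and 8.69% of all measured genes. With median-of-ratios scaling 4 were higher and 5 lower (median -0.01). The list ran from the galactosidase gene Glb1, at 63.6 CPM in S250 and 17.7 CPM in NS (1.85), to Gabarapl1 (-1.03). Cholesterol and fatty acid genes had 6 of 27 higher and 0 lower (median 0.11), beside 26.5% and 8.69% of all measured genes. With median-of-ratios scaling 5 were higher and 2 lower (median -0.12). Interferon and innate immune genes had 14 of 30 listed measured, 7 higher and 4 lower (median 0.52; 5 and 4, median 0.29, with median-of-ratios scaling). Of the 14, 3 passed the filter through S250 alone, Ddx58 among them, and 1 through NS alone. A filter of 1 CPM gave 9 higher and 10 lower. The measured genes included the RNA sensor gene Ddx58 at 10.6 CPM in S250 and 3.47 CPM in NS (1.62) and Irf1 at 11.3 and 31.1 CPM (-1.47).

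**Figure D2:**
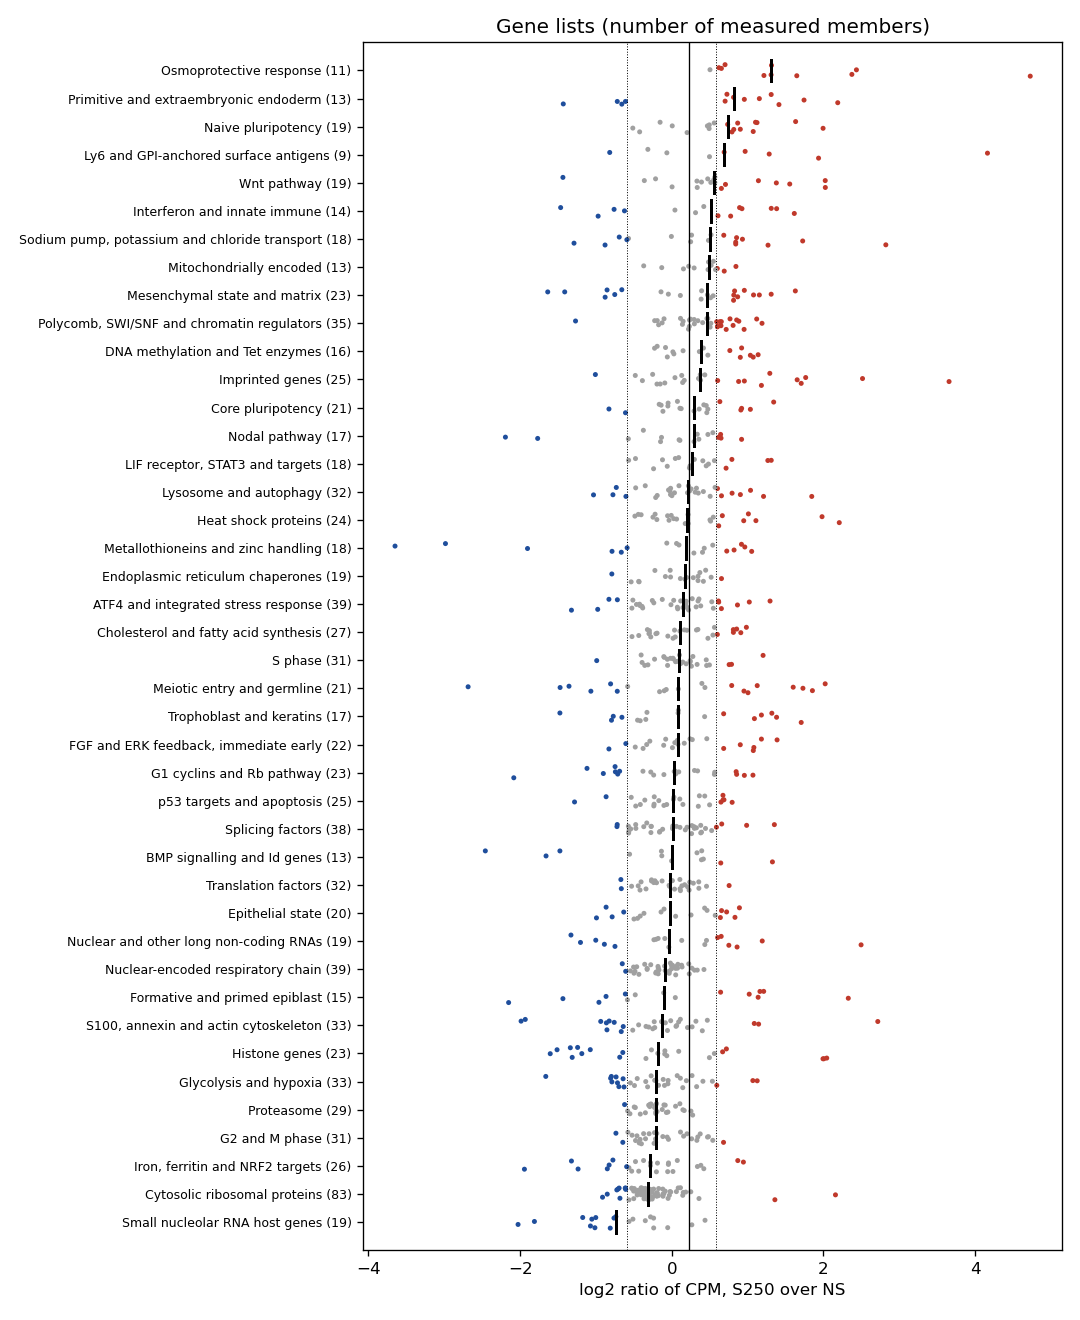
Each point is a measured gene of the named list, placed by its log2 ratio of CPM, S250 over NS; red points are at least 1.5-fold higher, blue ones at least 1.5-fold lower, and short black bars are list medians. The long line is the median of all measured genes, 0.23, and lists run from osmoprotective genes at the top (1.31) to small nucleolar RNA host genes at the bottom (-0.74).

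Transcript length moved with these ratios. The 10620 measured genes with an annotated length were cut into 4 bins of about equal size, and the median log2 ratio was -0.05 in the bin with the shortest transcripts and 0.18, 0.31 and 0.42 in the next ones. In the shortest bin 15.6% of genes were higher and 17.6% lower, and in the longest 35.8% and 3.84%. Of the 83 ribosomal protein genes 71 were in the shortest bin, and so were 12 of 19 small nucleolar RNA host genes, 31 of 39 nuclear-encoded respiratory genes and 21 of 29 proteasome genes, while 19 of 35 chromatin regulators and 7 of 11 osmoprotective genes were in the longest. The part of length, of depth (939 UMIs in the median S250 barcode, 2135 in NS) or of the mitochondrial share in these list medians was not tested.

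**Figure D3:**
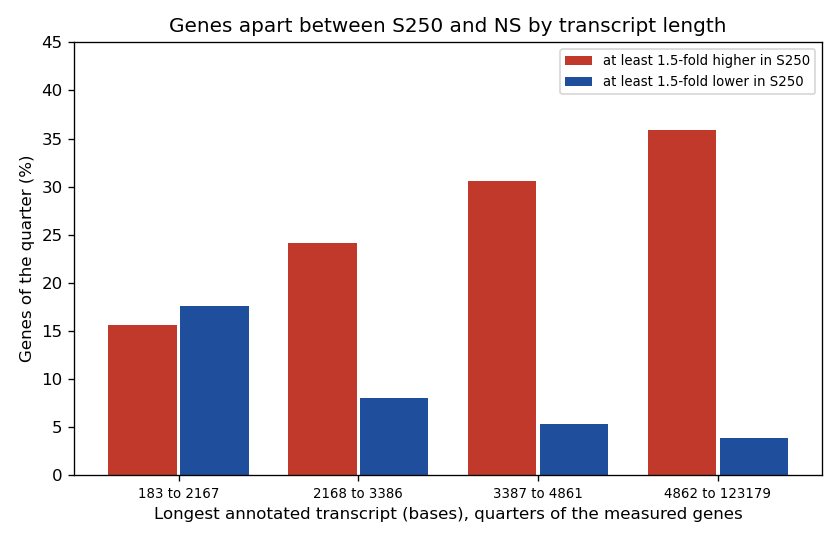
Bars give the percentage of the measured genes in each of 4 bins of annotated transcript length (horizontal axis, bases) that were at least 1.5-fold higher in S250 (red) or at least 1.5-fold lower (blue). The share higher runs from 15.6% to 35.8% and the share lower from 17.6% to 3.84% between the shortest and longest bins.

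The place of 250 mM among the doses was read in 6902 genes with at least 20 CPM in any of NS, S200, S250 and S300. S250 lay between S200 and S300 in 37.5% of them, above both in 31.2% and below both in 31.3%. For the 1613 of these genes that were higher in S250 than in NS, the shares were 42.0%, 26.3% and 31.7%. Those genes were picked by the same S250 level that is ranked, so their shares cannot be set against those of all genes. No gene stood at least 1.5-fold above each of the other 3 libraries in S250, and 5 genes (0.0724%) stood that far below, among them Snhg3, Anxa4, Cavin1 and the unnamed model Gm10076. Snhg3 had 33.8 CPM in NS, 44.0 at 200 mM, 20.3 at 250 mM and 38.7 at 300 mM, and Cavin1, a caveolar coat gene, 23.4, 17.6, 7.78 and 14.0 CPM. The same rule gave 20 genes above and 22 below at 200 mM, and 34 and 23 at 300 mM.

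Some of the genes named above moved step by step with dose, and others did not. Zfp42 had 562 CPM in NS and 521, 778 and 879 CPM at 200, 250 and 300 mM, so it passed the NS level between 200 and 250 mM. Sgk1 had 25.3 CPM in NS and 117, 131 and 177 CPM over the doses, and Nfib 13.3 CPM and then 40.5, 61.3 and 74.0 CPM. Both climbed at each step. Otx2 stood at 21.5 CPM in NS and 24.5, 49.9 and 62.2 CPM, near the NS level at the lowest dose only. Ly6a reached 139.5 CPM at 200 mM, 150.3 at 250 mM and 134 at 300 mM from 8.39 CPM in NS, and Slc5a3 31.5, 31.2 and 27.0 CPM from 5.78. Fxyd2 (178, 204 and 141 CPM) and Nrk (106, 116 and 75.6 CPM) were highest at 250 mM, and Pou5f1 had 248 CPM in NS and 185, 240.0 and 170.3 CPM over the doses. Mt1, with 2287 CPM in NS, had 231, 182 and 285 CPM. Each dose is 1 library, so a step between doses cannot be told apart from a difference between libraries.

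**Figure D4:**
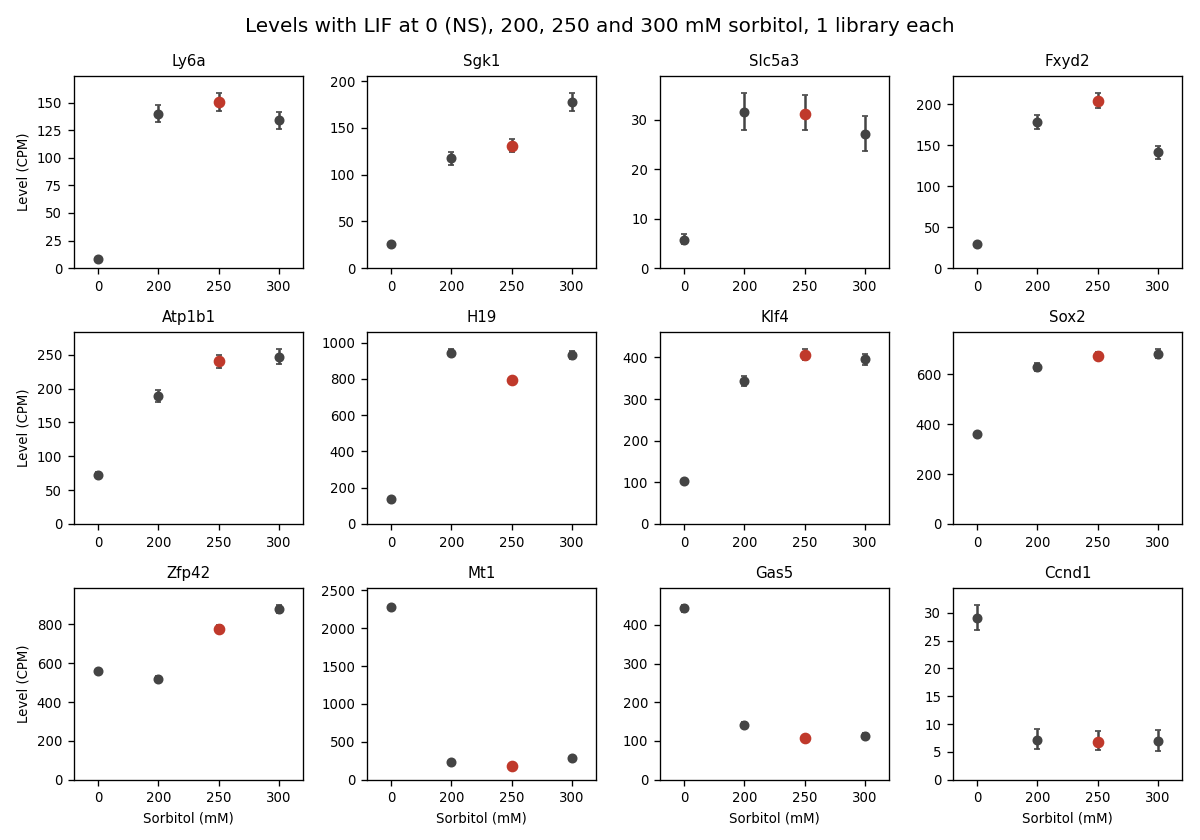
Levels (CPM, vertical axes from 0) of 12 genes at 0 (NS), 200, 250 and 300 mM sorbitol with LIF, 1 library each; bars are 95% Poisson intervals that cover counting error only, and the red point is 250 mM. Sgk1 rises from dose to dose up to 177 CPM, Ly6a stays between 134 and 150.3 CPM at all 3 doses, and Zfp42 exceeds its NS level at 250 and 300 mM.

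Single barcodes were compared after thinning each to 500 UMIs, so that both libraries had the same depth. A Ly6a UMI was found in 6.94% of S250 barcodes (6.45 to 7.46) and 0.410% of NS barcodes (0.294 to 0.556), and without thinning in 13.1% and 1.71%. If every barcode of a library drew from that library's summed profile, 7.24% would hold one in S250 and 0.419% in NS. The Ly6a share in S250 was thus near that of 1 common profile. With so few Ly6a UMIs per barcode, this share cannot tell an even spread from a subset of cells with Ly6a, which was not tested. Mt1 was found in 8.08% of S250 barcodes and 64.8% of NS barcodes, Klf4 in 17.7% and 5.07%, and Zfp42 in 31.8% and 24.6%. For S250 the common profile gives 8.72%, 18.4% and 32.2% for these genes. In NS it gives 68.2% for Mt1, whose variance over NS barcodes was 1.26 times the binomial value. No cell type that lacks them was present to give a background share.

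H19 was farther from the common profile. A UMI of H19 was found in 20.2% of thinned S250 barcodes (19.4 to 21.0) and 5.67% of NS barcodes (5.22 to 6.14), where the common profile gives 32.8% in S250 and 6.71% in NS. The variance of its counts over barcodes was 3.05 times the binomial value in S250 and 1.43 times in NS. At least 5 H19 UMIs stood in 1.54% of S250 barcodes and 0.040% of NS barcodes, and the 5% of S250 barcodes richest in H19 held 53.1% of its thinned UMIs, against 90.2% in NS, where fewer barcodes held any. In S200 and S300, libraries that the comparison did not use, the variance ratio was 2.33 and 2.56, and 1.30% and 1.47% of barcodes held at least 5. H19 was thus found in more S250 barcodes than NS barcodes, and was spread over them less evenly than the common profile gives. The ratio was read in 3778 genes with a mean of at least 0.02 thinned UMIs in S250, without mitochondrially encoded and ribosomal protein genes. Its median was 1.01 in S250, and 9 of these genes exceeded 1.2 in S250 and 17 in NS. The mean in NS was not used to pick them, so the counts of the 2 libraries are not over sets chosen alike. Besides H19 the 9 were Malat1 (3.23), Fabp3 (1.35), Gfod2, Rhox6, Col4a1, Golga3, Olfr655 and the model Gm42418, which are named because their values passed 1.2.

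**Figure D5:**
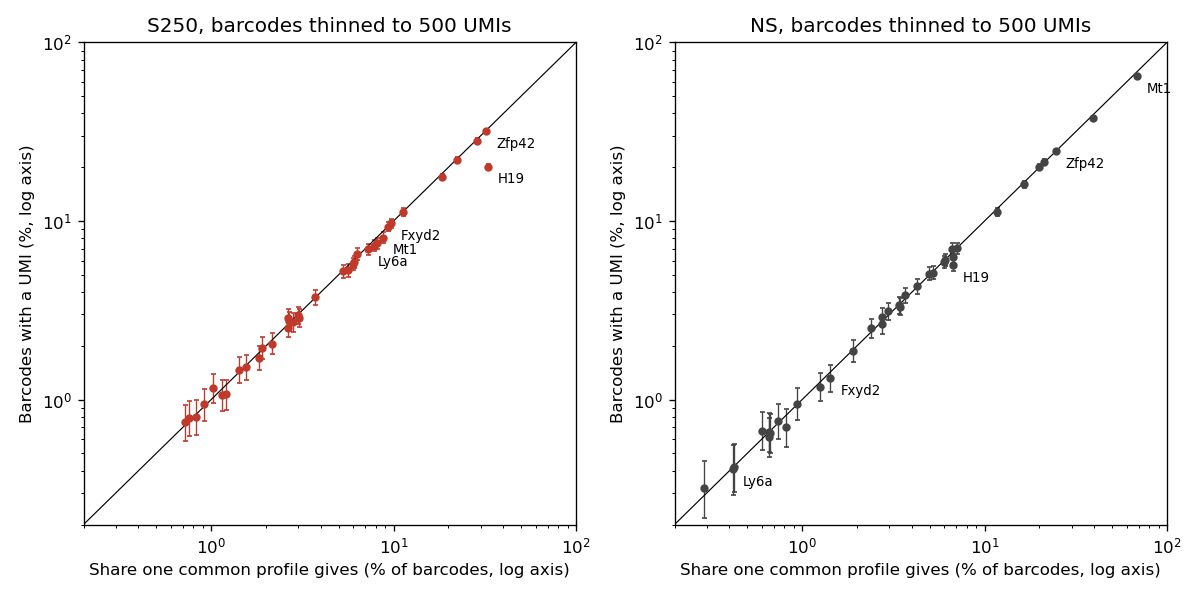
Each point is a gene: the horizontal axis is the share of barcodes that would hold a UMI if all drew from the library's summed profile, the vertical axis the share that did (both in percent, log axes), for S250 (left) and NS (right) after thinning to 500 UMIs; bars are exact binomial 95% intervals and the line is equality. H19 lies below the line, at 20.2% against 32.8% in S250, and Ly6a and Fxyd2 lie close to it. At such low shares a place on the line does not show an even spread.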

How the data were processed

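The deposited matrices hold unnormalized UMI counts, written by Cell Ranger 6.0.1 according to their headers. The submitters' processing notes also list mm10, R 4.1.2 and Seurat 4.1.1, without roles. The labels' protocols name a Trizol lysis and a Lexogen kit, although the matrices hold droplet barcodes; which steps apply was not settled. How strand was used and how 10000 barcodes per library were chosen is not given in the sources used here, so overlapping, antisense and near-identical genes are uncertain.

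Each matrix lists 32285 genes. Barcodes with at least 500 genes were kept; no doublet caller was run. UMIs per barcode spanned 827 to 2741 in S250 and 1897 to 6032 in NS, a narrow slice of depth in each. UMIs were summed per gene and scaled to CPM. Ratios have exact conditional binomial 95% intervals, levels have Poisson and shares Clopper-Pearson intervals. Counts under 3 UMIs were set to 3. Thinning to 500 UMIs left out 0 barcodes. The ratio and interval code was tested on simulated data. Work was done in Python 3.11.15 with numpy 2.4.6, pandas 2.3.3 and SciPy 1.17.1; TMM factors came from edgeR 4.0.16. Coordinates are those of GENCODE M21 (GRCm38), 1-based.

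The 47 gene lists (1237 of 1245 entries found) and the comparison itself were chosen with earlier results of these data known. Named genes are, first, the 15 at each end of the ratios once genes under 50 CPM in both libraries are set aside, without mitochondrial, ribosomal protein and unnamed models, plus Zfp42, Nanog, Pou5f1 and Sox2, up to 5 measured members per list with the largest absolute ratio, and genes apart at 250 mM. Other genes in the text, among them Slc6a6, Mt4, Mtf1, Fzd10, Gata6, Sox17, Sox1, Hand1, Tdrd12, Krt8, Krt18, the markers at 0 UMIs and the genes with a high variance over barcodes, were chosen after their values were seen. Alternatives were other scalings, filters, barcode sets and a 2-fold threshold. Some genes are not reported here. Whether replicates would differ is unknown, because each condition is 1 library.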

Additional observations from a re-analysis of the deposited data

How the results depend on the processing

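The count of genes higher in S250 (2817) was 1698 with median-of-ratios scaling, 1555 with TMM, 5316 with no filter beyond 3 UMIs, 627 with a filter of 50 CPM, 4697 among barcodes with at least 1000 genes and 1052 at 2-fold. The count lower (923) was 1662 and 1808 with the 2 scalings, 1594 with a filter of 1 CPM, 1997 with none, 275 with 50 CPM, 608 at 1000 genes and 323 at 2-fold. The Zfp42 log2 ratio (0.47) was 0.24 and 0.21 with the 2 scalings, 0.39 without mitochondrial and ribosomal protein genes in the total and 0.41 among barcodes with at most 5% mitochondrial UMIs (2591 in S250, 8505 in NS). It was positive under each alternative run. The filter of 1000 genes leaves 47 barcodes in S250 and 9255 in NS. Under it the ratios of Acaca (-0.13), Cd79a (2.33), Snhg3 (0.71), Lin28a (0.21), Twist1 (2.36), Platr14 (0.33) and Pvt1 (1.70) turned round. That of Cdkn1c was -0.047 after thinning each barcode to 500 UMIs. The blood and liver list, with Cd79a as its 1 measured member (-0.71), had medians of 0.023 without mitochondrial and ribosomal protein genes, 0.091 with 1 CPM, 0.48 with no filter and 3.23 at 1000 genes, and the neuroectoderm median was -0.18 with no filter; looser filters measure more members. Except where given, the cause was not tested. No paired analysis was possible because each group has 1 library. Depth limits most the genes near 5 CPM, whose intervals are the widest.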

Other observations

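Transcripts of gene pairs met in the same barcode unevenly. After thinning to 500 UMIs, Krt18 was found in 17.8% of 152 S250 barcodes with a Krt8 UMI and in 0.701% of the other 9848, and in NS in 5.41% (2.36 to 10.4) of 148 barcodes with Krt8 and 1.39% of the other 9852. Krt8 and Krt18 encode the partner keratins of simple epithelia, and their summed levels stood at 37.8 and 23.0 CPM in S250 and 28.0 and 30.7 CPM in NS, both short of 1.5-fold. Igf2 was found in 1.93% (1.38 to 2.63) of 2019 S250 barcodes with H19 and 0.288% (0.183 to 0.432) of those without; NS had 1 barcode with both. Mt2 was found in 9.41% of S250 barcodes with Mt1 and 5.60% of those without, and in NS in 39.5% and 34.2%.

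Other pairs had closer shares in S250. Fxyd2 was found in 7.35% of the 694 barcodes with Ly6a and 9.90% of those without, and Zfp42 in 33.1% and 31.7%. Tbx3 was found in 16.5% of barcodes with Klf4 and 14.9% of those without, and Meioc in 3.33% of barcodes with Stra8 and 2.99% of those without. The pairs were chosen with results of these data known, barcodes are not replicates, and doublets were not removed.

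The median log2 ratio to NS in the 4 bins of transcript length, short to long, was -0.14, 0.16, 0.28 and 0.41 at 200 mM and -0.11, 0.24, 0.39 and 0.50 at 300 mM. In ND, the library without LIF and of about the same depth as the sorbitol libraries, it was -0.07, 0.08, 0.10 and 0.14. All of these share the NS library.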
